A study of Mus musculus with 10 samples.

Results

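A total of 368 ATAC-seq peaks at gene ends were far more accessible in mouse brain than in mouse lung, and this account describes their genes. They were found among 37513 peaks counted in 10 libraries. A peak was taken if it lay on an autosome, had at least 2 reads in each of the 4 brain libraries, had its centre within 1000 bp of either end of a protein-coding gene, and had a brain level at least 6 times its lung level. That ratio was (mean brain level + 1)/(mean lung level + 1), with levels in reads per 1000000 reads in nuclear peaks (RPM). Of 10830 autosomal gene-end peaks with the required brain reads, these 368 are 3.40%. The members were thus selected on the measured difference between brain and lung, so their brain and lung levels are given as a description, with no test.

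The samples were fresh frozen tissue sections of wild-type C57BL/6J mice, cut by the transposase Tn5 on the slide before nuclei were collected by laser-capture microdissection. A library pooled either captured areas totalling about 200 nuclei or 50 nuclei captured singly. There were 2 brain libraries of 200 nuclei, 2 brain libraries of 50 nuclei, 3 lung libraries of 200 nuclei and 3 lung libraries of 50 nuclei. The labels call the repeats technical at the least and give no animal per library, age or sex, so p-values measure the spread between libraries, which may be technical. Nuclei per library and capture mode (areas or single nuclei) changed together and cannot be told apart. Nuclei were taken at random, so a larger share of a cell type and more accessibility per nucleus cannot be told apart either.

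In ATAC-seq, Tn5 inserts sequencing adapters where DNA is not wrapped in nucleosomes, so reads pile up at active promoters and enhancers. Promoters lie at the 5′ ends of genes, and most housekeeping promoters are open in every tissue. Brain tissue holds neurons, which signal through transmitter receptors, ion channels and vesicle release, beside oligodendrocytes, which make myelin, and astrocytes, which buffer potassium and take up transmitter.

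Start-site windows of 300 bases from RefSeq (build GRCm38.p6, the assembly called mm10) show what lay under 7 member peaks and 1 shared peak. All are written 5′ to 3′ on the gene's strand, with the transcription start near the right end. Eml2 and Kif1a are shown because their peaks were without a lung read and had the highest and the fourth highest ratios. In these 2, capitals mark the bases inside the peak, which run from 155 to 25 bases before the start of Eml2 (chr7:19176171-19176470, plus strand) and cover the last 76 bases of the Kif1a window (chr1:93101825-93102124, minus strand).
Eml2: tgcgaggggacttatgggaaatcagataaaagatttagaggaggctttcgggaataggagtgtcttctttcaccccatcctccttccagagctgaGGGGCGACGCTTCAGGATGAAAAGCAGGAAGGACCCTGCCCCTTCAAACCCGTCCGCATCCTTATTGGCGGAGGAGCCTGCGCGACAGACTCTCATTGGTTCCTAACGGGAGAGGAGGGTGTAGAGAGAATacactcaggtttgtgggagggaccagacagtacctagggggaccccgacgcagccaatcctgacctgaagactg
Kif1a: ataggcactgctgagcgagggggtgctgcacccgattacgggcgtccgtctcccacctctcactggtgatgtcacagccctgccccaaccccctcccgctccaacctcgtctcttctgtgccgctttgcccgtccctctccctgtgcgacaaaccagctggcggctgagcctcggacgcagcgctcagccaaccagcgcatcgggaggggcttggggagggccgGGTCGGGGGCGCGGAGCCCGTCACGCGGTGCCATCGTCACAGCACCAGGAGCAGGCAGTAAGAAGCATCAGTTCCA
Clstn3 is shown because its window (chr6:124464735-124465034, minus strand) holds a cAMP response element, TGACGTCA, here in capitals and inside the peak. It begins 1 base before the start.
Clstn3: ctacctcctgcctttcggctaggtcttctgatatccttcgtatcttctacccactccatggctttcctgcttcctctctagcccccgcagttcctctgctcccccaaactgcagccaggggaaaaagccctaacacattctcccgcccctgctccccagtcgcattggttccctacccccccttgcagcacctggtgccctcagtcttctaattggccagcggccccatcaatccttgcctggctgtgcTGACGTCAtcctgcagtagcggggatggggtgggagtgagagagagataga
Nsg2 (chr11:32000450-32000749, plus strand) and Cntnap5b (chr1:99772151-99772450, plus strand) are shown as the 2 member windows with the left arm of the neuron-restrictive element RE1, TTCAGCACC. Capitals mark that arm, which in Cntnap5b stands on the opposite strand and is read as its reverse complement. It lay inside the Nsg2 peak, 201 to 193 bases before the start, and outside the Cntnap5b peak.
Nsg2: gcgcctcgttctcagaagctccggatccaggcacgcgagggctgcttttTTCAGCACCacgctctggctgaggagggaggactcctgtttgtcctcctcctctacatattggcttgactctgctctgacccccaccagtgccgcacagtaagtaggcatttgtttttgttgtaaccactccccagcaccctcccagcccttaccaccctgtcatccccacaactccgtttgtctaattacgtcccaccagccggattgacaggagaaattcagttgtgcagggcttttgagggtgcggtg
Cntnap5b: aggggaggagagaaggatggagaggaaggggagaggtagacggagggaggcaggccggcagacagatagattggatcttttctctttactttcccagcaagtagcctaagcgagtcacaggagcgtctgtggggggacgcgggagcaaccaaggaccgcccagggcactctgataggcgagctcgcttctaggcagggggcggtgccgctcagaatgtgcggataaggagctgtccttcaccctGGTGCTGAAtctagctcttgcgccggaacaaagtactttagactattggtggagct
Chn1 (chr2:73775297-73775596, minus strand) is shown for an RFX motif, GTTGCCATG, in capitals 64 to 56 bases before the start and outside the peak.
Chn1: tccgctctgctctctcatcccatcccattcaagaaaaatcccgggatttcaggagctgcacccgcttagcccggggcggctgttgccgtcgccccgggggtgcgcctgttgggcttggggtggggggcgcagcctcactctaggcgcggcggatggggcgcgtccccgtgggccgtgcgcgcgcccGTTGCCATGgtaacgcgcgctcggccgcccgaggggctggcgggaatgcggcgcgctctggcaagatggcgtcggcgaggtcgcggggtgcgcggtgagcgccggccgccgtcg
The 2 starts of Pde4dip are shown because 1 is a member and the other is open in both tissues. Capitals mark peak bases, 102 of them at the member start (chr3:97888658-97888957, minus strand) and all 300 at the other start (chr3:97767965-97768264, minus strand), whose peak is chr3:97767675-97768396.
Pde4dip member start: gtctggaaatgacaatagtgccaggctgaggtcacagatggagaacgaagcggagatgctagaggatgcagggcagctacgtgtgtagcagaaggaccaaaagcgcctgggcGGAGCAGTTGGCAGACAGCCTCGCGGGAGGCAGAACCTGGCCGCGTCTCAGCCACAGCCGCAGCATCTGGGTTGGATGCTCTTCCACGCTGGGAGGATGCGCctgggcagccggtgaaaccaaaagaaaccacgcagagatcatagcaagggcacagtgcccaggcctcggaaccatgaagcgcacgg
Pde4dip other start: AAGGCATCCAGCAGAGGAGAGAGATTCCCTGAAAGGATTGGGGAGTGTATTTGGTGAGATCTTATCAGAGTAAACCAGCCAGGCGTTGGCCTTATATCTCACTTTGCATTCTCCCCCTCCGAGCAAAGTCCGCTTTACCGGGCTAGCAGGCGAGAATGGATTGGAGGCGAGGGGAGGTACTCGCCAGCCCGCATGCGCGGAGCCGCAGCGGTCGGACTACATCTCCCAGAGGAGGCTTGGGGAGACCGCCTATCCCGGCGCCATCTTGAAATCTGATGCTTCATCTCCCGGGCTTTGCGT

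Between 319307 and 465489 reads per brain library and between 340697 and 3075377 per lung library fell in nuclear peaks. Mitochondrial DNA took 93.4% to 95.8% of all peak reads in brain libraries and 24.7% to 58.0% in lung libraries, and these reads do not enter RPM. A single read was worth 2.15 to 3.13 RPM in a brain library and 0.325 to 2.94 RPM in a lung library. The fits were scaled by edgeR's TMM factors over all peaks, with a median log2 fold of 0.07. Scaling by library totals without these factors gave -3.34, and TMM with mitochondrial peaks left out gave 0.114. Levels computed over all reads would leave no member under the rule.

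The 368 members together took 1.08% ± 0.114 of nuclear reads in brain libraries and 0.0767% ± 0.0386 in lung libraries (SD, n = 4 and 6). Every member had a read in each brain library by the rule. In lung, 282 of the 368 had a read in the deepest library. Among lung libraries of 50 nuclei, 179 had a read in replicate 1, 35 in replicate 2, the shallowest, and 37 in replicate 3. Replicates 2 and 3 stood apart, with 0.0264% and 0.0290% of nuclear reads on members. The other lung libraries had 0.0920% to 0.113%. The median member stood at 27.6 and 19.3 RPM in brain libraries of 200 nuclei and at 27.4 and 21.9 RPM in those of 50 nuclei. In lung it stood at 1.66, 2.20 and 1.63 RPM in libraries of 200 nuclei and at 0 in all 3 libraries of 50 nuclei.

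**Figure D1:**
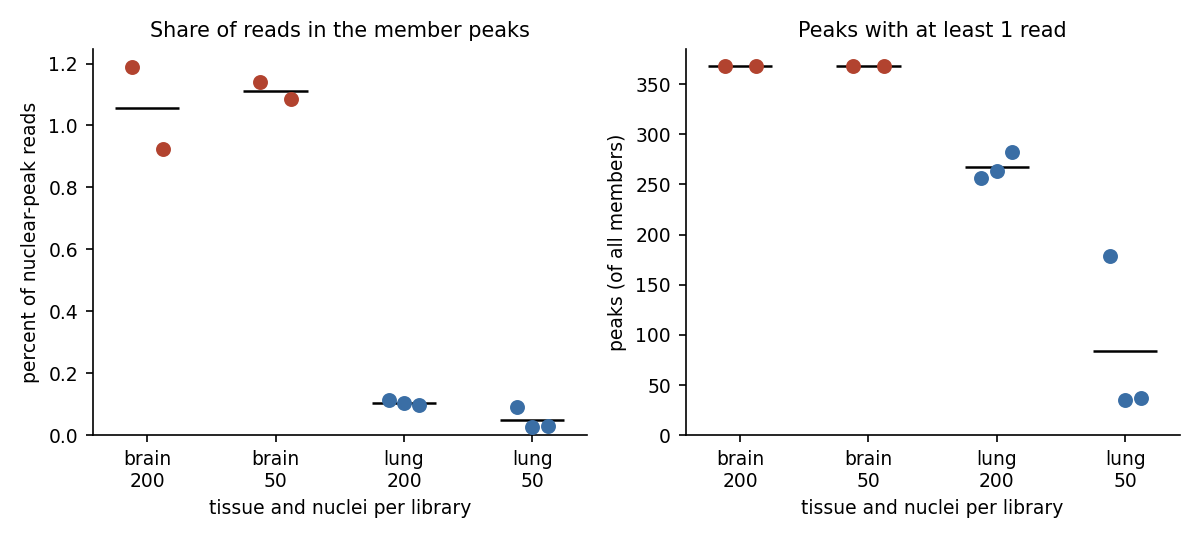
Percent of nuclear peak reads that fell on the 368 members (left) and number of members with at least 1 read (right), one point per library, brain groups left of lung groups, lines at the group means. For the share, the 4 brain libraries sit between 0.925% and 1.19%, and the 6 lung libraries between 0.0264% and 0.113%.

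Mean brain levels of the members ranged from 8.51 to 117 RPM with a median of 24.3 RPM, and mean lung levels from 0 to 18.1 RPM with a median of 1.37 RPM. The rule's ratio had a median of 9.29 and a highest value of 62.9, against a median of 1.28 (quartiles 0.943 and 1.89) over all 10830 gene-end peaks. No read was found in any lung library at 12 members, 1 to 3 lung reads at 35, and a read in every lung library at only 3. In 348 members the lowest brain library was above the highest lung library, against 12.5% of all gene-end peaks. The rule's ratio and its minimum of brain reads favour such separation. It is therefore given as description only, here and at the genes named below. The coefficient of variation between brain libraries had a median of 39.3% over the members, so single peaks are measured coarsely.

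Members were called higher in brain by edgeR's quasi-likelihood test in 345 of 368 cases, beside 7.33% of all gene-end peaks and 5.76% of all peaks tested, and nothing is read from this since the rule used the same contrast. Their fitted log2 fold had a median of 4.56 (quartiles 3.41 and 5.41) with a median SE of 1.09, against 0.39 over gene-end peaks and 0.07 over all peaks. The 23 members without a call were weak peaks, with a median of 15.8 RPM in brain, against 25.4 RPM in the others.

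The 8 members with the highest brain levels were Shisa4, Prkd2, Sox8, Clstn3, Stxbp5l, Map1a, Pcdh10 and Atp6v0e2. Brain values are given for the 200-nuclei replicates 1 and 2 and then the 50-nuclei replicates 1 and 2, and lung values as the lowest, median and highest of 6 libraries. Shisa4, of the Shisa family of transmembrane proteins, had 100.3, 125, 107 and 135 RPM in brain against 0, 18.7 and 36.5 RPM in lung (chr1:135374929-135375480). Its fitted log2 fold was 2.66 (SE 0.41). Every brain library lay far above the highest lung library, although lung was not closed. Prkd2, a protein kinase D, had 158, 90.2, 115 and 81.4 RPM in brain against 0, 0.325 and 31.0 RPM in lung. That peak lies at the 3′ end of the gene, and a single lung library carried nearly all of its lung signal. Sox8, a transcription factor of the oligodendrocyte lineage, had 90.3, 90.2, 93.0 and 119 RPM in brain against 5.69, 11.6 and 18.3 RPM in lung. Sox8 was among the 3 members with reads in all 6 lung libraries, and its tissues did not overlap.

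Clstn3, which encodes the postsynaptic adhesion protein calsyntenin-3, had 125, 66.6, 112 and 84.6 RPM in brain against 0, 0.163 and 7.76 RPM in lung. Stxbp5l, which encodes the syntaxin-binding protein tomosyn-2, had 85.2, 107, 93.0 and 87.7 RPM in brain against 0, 9.65 and 21.3 RPM in lung. Neither overlapped between tissues, and Stxbp5l varied little across brain libraries (93.3 ± 9.92 RPM, SD, n = 4). Map1a, a microtubule-associated protein of neurons, had 75.2, 79.5, 129 and 65.8 RPM in brain against 0, 14.9 and 26.0 RPM in lung. Pcdh10, a protocadherin, had 82.8, 94.5, 62.9 and 87.7 RPM in brain against 0, 3.58 and 13.3 RPM in lung. Atp6v0e2, a subunit of the proton pump that acidifies vesicles, had 75.2, 105, 57.5 and 75.2 RPM in brain against 0, 12.3 and 16.4 RPM in lung. In these 3 too the lowest brain library stood above the highest lung library.

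The 8 highest ratios fell on Eml2, Khdrbs2, Cmtm5, Kif1a, Jakmip2, Srrm4, Pou3f3 and Epha5. Eml2, a microtubule-associated protein, had 95.3, 27.9, 71.2 and 53.2 RPM in brain and no lung read (chr7:19176266-19176396, the capitals above). With a floor of 3 reads over the lung group, its summed brain level was at least 158.5-fold higher. Kif1a, the kinesin that carries synaptic vesicle precursors along axons, had 57.7, 34.4, 43.8 and 40.7 RPM in brain and no lung read, at least 114.7-fold higher. Srrm4, a splicing factor of neural microexons, had 40.1, 27.9, 21.9 and 37.6 RPM in brain and no lung read, at least 82.7-fold higher. The other 9 members without a lung read were Elavl3 (at least 72.5-fold), Egr4 (60.7), Dlgap1 (50.6), Snap25 (48.9), a peak of Enox1 (45.5), Erich3 (38.8), Ptprz1 (32.0), Rbm4 (23.6) and Dync1i1 (21.9), each a lower bound.

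Khdrbs2, a splicing regulator of the STAR family, had 77.7, 53.7, 73.9 and 40.7 RPM in brain against 0, 0 and 2.20 RPM in lung. It held 96 brain reads and 3 lung reads, a ratio of summed levels of 162 with an exact 95% interval of 53.8 to 799 for counting error only. Cmtm5, a gene of myelinating cells whose peak is shared with Il25, had 75.2, 79.5, 54.7 and 72.0 RPM in brain against 0, 0.366 and 1.42 RPM in lung. Pou3f3, a POU transcription factor of neural progenitors and upper cortical layers, had 72.7, 60.1, 49.3 and 119 RPM in brain against 0, 1.69 and 2.93 RPM in lung. None of these 3 overlapped. Summed over the 6 lung libraries they held 3, 6 and 15 reads. Jakmip2, which encodes a protein that binds Janus kinases and microtubules, had 60.2, 25.8, 52.0 and 75.2 RPM in brain against 0, 0.277 and 1.46 RPM in lung. Epha5, an ephrin receptor of axon guidance whose peak is shared with the predicted gene Gm42163, had 52.7, 25.8, 60.2 and 40.7 RPM in brain against 0, 0 and 2.20 RPM in lung. Both were clear of lung in every brain library.

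**Figure D2:**
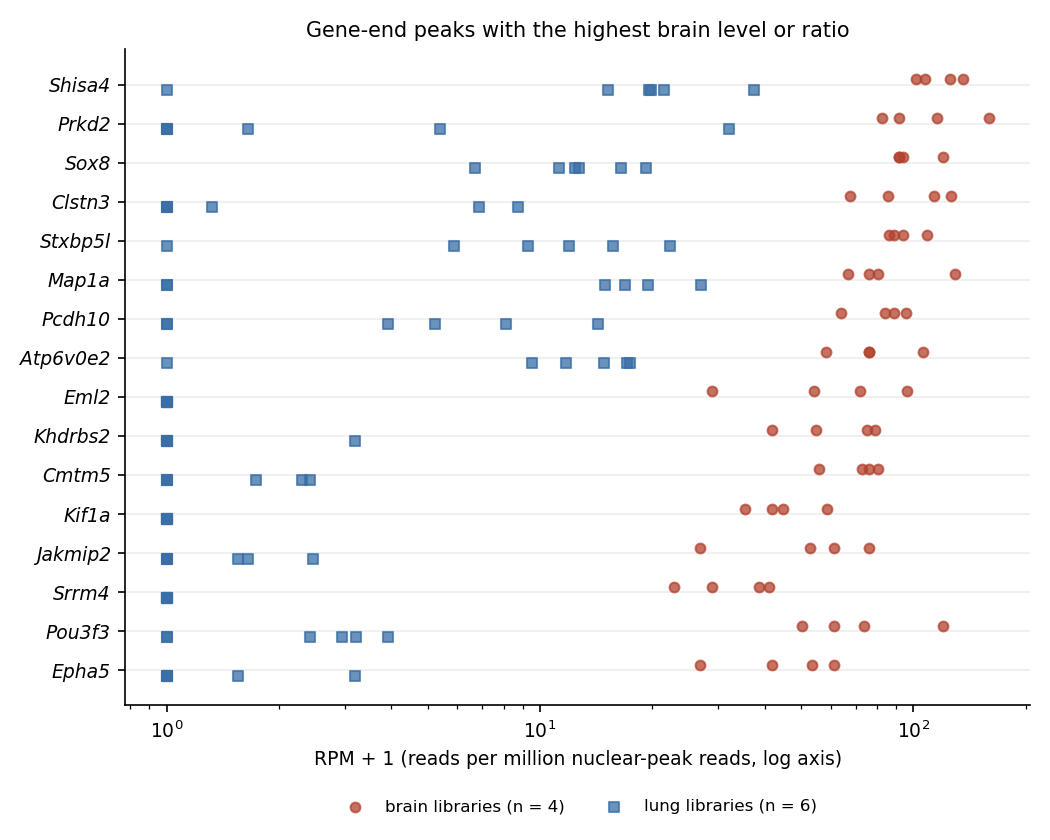
Levels as RPM + 1 on a log axis for the members named by brain level or ratio, one point per library, with brain points drawn above lung points in each row. In every row shown all 4 brain points lie to the right of all 6 lung points.

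By function, 119 members had a gene in one of 14 lists of neural and lung genes, and 249 had none. Since lists and members were both chosen with these data known, only counts are given, to be set against 3.40% of gene-end peaks. All these shares are over peaks with the required brain reads. Shares were highest for neurotransmitter receptors, where 11 of 21 peaks were members (52.4%), and for voltage-gated and potassium channels, with 12 of 28 (42.9%). Adhesion and synapse-organising genes had 19 of 56 (33.9%), synaptic vesicle genes 10 of 33 (30.3%), astrocyte genes 6 of 21 (28.6%), and myelin and oligodendrocyte genes 7 of 27 (25.9%). Lower shares were found for neuropeptide, growth factor and secretory genes (6 of 24), postsynaptic scaffold and signalling genes (7 of 30), microtubule and motor genes (13 of 72), neural transcription factors (12 of 68), neuronal RNA-binding proteins (5 of 33), transporters (6 of 44), and G protein and second-messenger genes (11 of 84, 13.1%). The list of lung endothelium and epithelium had 1 of 20, and its median ratio was 0.447. Transcription factor genes had a median ratio of 1.19, close to the 1.28 of all gene-end peaks, whereas receptor genes had 6.12.

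**Figure D3:**
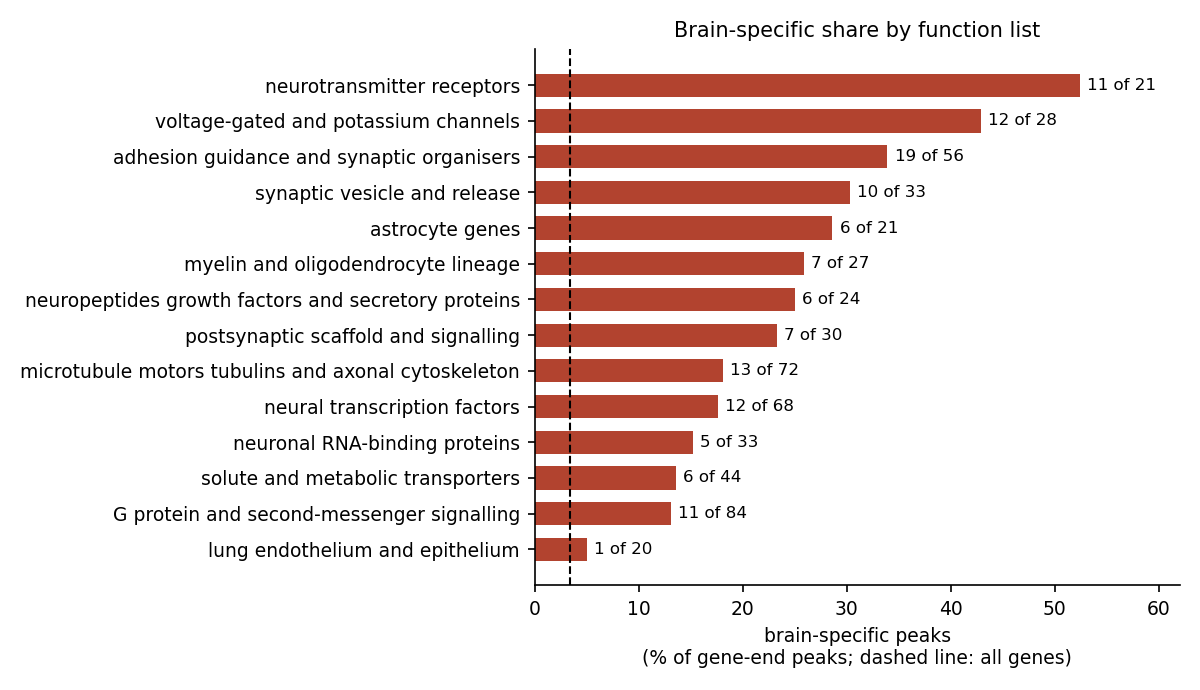
Percent of gene-end peaks with enough brain reads that are members, one bar per gene list, with the number of members and peaks beside each bar and a dashed line at the 3.40% of all gene-end peaks. Receptors (52.4%) and channels (42.9%) stand at the top, and the lung list (5%) at the foot.

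Receptor members covered glutamate and GABA signalling. Grin1, the obligatory subunit of NMDA receptors, had 50.1, 32.2, 41.0 and 28.2 RPM in brain against 0, 0.163 and 4.43 RPM in lung (chr2:25319058-25319193). Families were counted only over genes whose gene-end peak had the required brain reads, so genes low in brain were left out. Among metabotropic glutamate receptors, which act through G proteins, all 3 genes so counted were members: Grm3, Grm7 and Grm8, the first 2 with 2 peaks each. The stronger Grm7 peak had 27.6, 19.3, 24.6 and 53.2 RPM in brain against 0, 0 and 1.66 RPM in lung. Gabra4 and Gabrb1, subunits of the GABA-A receptor chloride channel, shared a peak at their adjoining ends with 25.1, 15.0, 32.8 and 37.6 RPM in brain against 0, 0 and 4.26 RPM in lung. Gabrg1 had a measured peak that was no member. Gpr37, an orphan receptor of oligodendrocytes, had 60.2, 77.3, 87.6 and 68.9 RPM in brain against 0, 0.163 and 26.4 RPM in lung, 1 lung library being high. Gpr158 had 27.6, 30.1, 35.6 and 21.9 RPM in brain against 0, 0 and 3.66 RPM in lung, and no receptor named here overlapped between tissues.

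Among ion channels, Kcnj10 stood highest. It encodes the inward rectifier Kir4.1 through which glia clear potassium, and had 65.2, 43.0, 30.1 and 53.2 RPM in brain against 0, 4.27 and 12.2 RPM in lung. Kcnq3, a subunit of the M current that limits neuronal firing, had 30.1, 21.5, 46.5 and 40.7 RPM in brain against 0, 0 and 0.732 RPM in lung. Kcna1, a delayed rectifier of axons, had 40.1, 17.2, 43.8 and 31.3 RPM in brain against 0, 0 and 9.42 RPM in lung. These ranges did not overlap. Other channel members included Cacna1b (N-type calcium channel), Nalcn (sodium leak channel), Kcna4, Kcna6, Kcnh5, Kcnip4, Cacng7 and Kctd16.

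At the presynapse, Pclo, a scaffold of the active zone, had 60.2, 64.5, 76.6 and 78.3 RPM in brain against 0, 11.4 and 15.4 RPM in lung. Syt1, the calcium sensor of vesicle release, had 50.1, 38.7, 73.9 and 65.8 RPM in brain against 0, 1.52 and 5.12 RPM in lung. Snap25, a SNARE protein of vesicle fusion, was lower at 25.1, 17.2, 16.4 and 15.7 RPM in brain, with no lung read. Levels are reads per peak, and peaks differ in width, so they do not rank promoters per length. Other presynaptic members were Cplx1, Rims3, Snap91, Stxbp5, Syn2 and Syt5. At the postsynapse, Camk2a, a calcium-dependent kinase of plasticity, had 45.1, 17.2, 57.5 and 78.3 RPM in brain against 0, 0 and 2.93 RPM in lung. Ppp1r1b, which encodes the dopamine-regulated phosphatase inhibitor DARPP-32, had 52.7, 17.2, 49.3 and 59.5 RPM in brain against 0, 0.366 and 7.48 RPM in lung. In both genes the second 200-nuclei brain library was the lowest of the 4, still above every lung library.

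Adhesion and guidance genes made up the longest list of members. Clstn3, Pcdh10 and Epha5 are given above. Celsr3, a cadherin of axon tract formation, had 32.6, 30.1, 32.8 and 15.7 RPM in brain and 1 lung read. Contactins and their partner proteins of the Cntnap family were members at all 4 genes with a peak that had the required brain reads: Cntn1, Cntnap2, Cntnap3 and Cntnap5b. Cntn1 was uneven, at 15.0, 12.9, 38.3 and 37.6 RPM in brain against 0, 2.07 and 3.65 RPM in lung, with both 50-nuclei libraries above both 200-nuclei libraries.

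Glial genes formed a second group. Olig1, an oligodendrocyte transcription factor, had 62.7, 62.3, 30.1 and 62.6 RPM in brain against 0, 0 and 5.54 RPM in lung. Mag, a myelin adhesion glycoprotein, had 17.6, 47.3, 38.3 and 28.2 RPM in brain against 0, 0 and 1.30 RPM in lung. Cnp, Mal and Omg completed the myelin list beside Sox8 and Cmtm5. Cnp, an enzyme of myelin, averaged 30.2 RPM in brain and 3.43 in lung at its member. But a peak with its centre 434 bp away was alike in both tissues, averaging 27.6 RPM in brain and 27.3 RPM in lung. Among astrocyte genes, Mt3, a brain metallothionein, had 45.1, 47.3, 43.8 and 21.9 RPM in brain against 0, 0.691 and 6.09 RPM in lung. Ntrk2, the receptor for brain-derived neurotrophic factor, had 72.7, 27.9, 32.8 and 28.2 RPM in brain against 0, 1.62 and 4.43 RPM in lung. All 4 were separated from lung. The secretory gene Cpe, a carboxypeptidase that trims prohormones, had 70.2, 53.7, 41.0 and 43.8 RPM at the stronger of its 2 member peaks in brain against 0, 6.87 and 9.42 RPM in lung.

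Some families were split between members and other genes, as seen when genes were grouped by symbol after their values were known. Only genes with a gene-end peak that had the required brain reads were counted. All 3 members of the POU family were class III factors, Pou3f1, Pou3f2 and Pou3f3, while the class II genes Pou2f1 and Pou2f2 were measured and not members. Pou3f2 had 40.1, 15.0, 21.9 and 50.1 RPM in brain against 0, 0 and 1.66 RPM in lung. SOX genes gave 3 members of 10 (Sox2, Sox8, Sox9), potassium channel subunits 8 of 21, synaptotagmins 4 of 6, protocadherins 3 of 7 and Eph receptors 3 of 9. Among large families of general function, 6 of 163 solute carriers (3.68%), 2 of 68 mitochondrial ribosomal proteins (2.94%) and 2 of 40 proteasome subunits (5%) were members, shares near the 3.40% of all gene-end peaks. Kinesins gave 3 of 29 (10.3%), tubulins 2 of 11 and Zfp zinc-finger genes 3 of 258 (1.16%).

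Cell type markers describe the brain label and its limits. Of 8 neuronal markers, 7 had a gene-end peak and 6 a member. Their summed level was 236.3 to 295.9 RPM in brain libraries and 10.9 to 58.7 RPM in lung libraries. All sums given here include member peaks. The rule chose those for being higher in brain, so the gap between tissues is partly built in. Of 8 oligodendrocyte markers, 4 had a gene-end peak and 3 a member, at 135.4 to 199.8 RPM in brain and 2.94 to 65.7 RPM in lung. Mbp was the marker with a peak but no member. It averaged 19.1 ± 9.43 RPM in brain and 13.25 ± 8.95 RPM in lung (SD, n = 4 and 6). Of 7 astrocyte markers only Kcnj10 had a peak, and Gfap, Aqp4, Slc1a2, Slc1a3, Aldh1l1 and Gja1 had no measured gene-end peak. Microglia had 2 peaks of 5 genes, and the only member was Sall1, a zinc-finger transcription factor gene, at 45.1, 53.7, 35.6 and 53.2 RPM in brain against 0, 0 and 2.93 RPM in lung. The other microglial peak, at the membrane protein gene Tmem119, averaged 8.20 ± 4.15 RPM in brain and 14.1 ± 4.86 RPM in lung (SD, n = 4 and 6). Csf1r, Cx3cr1 and P2ry12 had no gene-end peak. Of 7 endothelial markers, 5 had a gene-end peak and none had a member, with 62.7 to 106.5 RPM in brain and 173.2 to 304.5 RPM in lung. Lung epithelial markers reached 60.2 to 109.5 RPM in brain and 77.6 to 114.1 RPM in lung, so these ranges overlapped. Their 1 member came from a peak at the adjoining ends of Bmp1, a procollagen protease, and Sftpc, the surfactant protein C gene, with 27.6, 21.5, 49.3 and 43.8 RPM in brain against 0, 0 and 7.80 RPM in lung. Which of the 2 genes that peak belongs to was not tested.

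Most members of known strand lay nearest to a 5′ end, but a listed start-site window overlapped only 159 of the 368 members. Strand was known for 288, of which 272 were nearest to a 5′ end and 16 to a 3′ end (5.56%, against 3.78% of 8768 gene-end peaks with strand). Members made up 4.83% of 331 peaks at 3′ ends and 3.22% of 8437 at 5′ ends. The 3′-end members were 2 peaks of Sncb and 1 each of Cdk5r2, Kif1c, Serpinf2, Baiap2, Hbp1, Pigq, Rabl6, Hspb7, Fbxo2, Prkd2, Xrra1, Rhog, Adgra1 and Gm35549. Sncb encodes beta-synuclein of presynaptic terminals, and its stronger 3′ peak had 37.6, 17.2, 32.8 and 18.8 RPM in brain against 0, 1.63 and 4.26 RPM in lung. Fbxo2, which encodes a ubiquitin ligase subunit of neurons, had 92.8, 90.2, 49.3 and 37.6 RPM in brain against 0, 0.813 and 11.4 RPM in lung at its 3′ end. Baiap2, a scaffold of dendritic spines, had 27.6, 32.2, 41.0 and 28.2 RPM in brain against 0, 0 and 2.28 RPM in lung. These 3 were all separated between tissues. Peaks were placed at genes by distance alone, and which gene a 3′-end peak acts on was not tested.

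Both ends could be compared in 25 genes. In 24 of them the member lay at 1 end and a measured peak that was no member at the other, over 25 such pairs. The ratio at that other end had a median of 1.39 and ranged from 0.386 to 5.12, and it was under 2 in 18 pairs and under 1 in 5. Prkd2 had the highest member level of these genes: its 3′ peak averaged 111 ± 34.3 RPM in brain and 6.01 ± 12.4 RPM in lung (SD, n = 4 and 6), whereas its 5′ peak averaged 30.9 RPM in brain and 38.5 RPM in lung. Ethe1, a mitochondrial sulfur dioxygenase, averaged 18.1 RPM in brain and 1.28 in lung at the member, and 7.31 RPM in brain and 20.5 in lung at its 3′ end. The Ethe1 member is shared with Zfp575 and overlapped between tissues. Rhog, a small GTPase, averaged 22.3 RPM in brain and 1.93 in lung at its 3′ end, which adjoins Pgap2, against 49.0 RPM in brain and 82.7 in lung at its 5′ end. It too overlapped between tissues. Slc26a1, a sulfate transporter, averaged 21.6 RPM in brain and 0.237 in lung at 1 of its 2 members, and 28.2 RPM in brain and 19.9 in lung at its 3′ end.

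Ppp1r1b showed a brain-high end and a shared end: the member averaged 44.6 RPM in brain and 2.11 RPM in lung, and the opposite end 28.5 RPM in brain and 23.4 RPM in lung. Pigq, of the glycosylphosphatidylinositol anchor pathway, averaged 30.0 RPM in brain and 0.843 in lung at its 3′ end, and 18.1 RPM in brain and 11.4 in lung at its 5′ end. Hbp1, a transcriptional repressor, averaged 26.3 RPM in brain and 2.98 in lung at its 3′ end, and its 5′ peak averaged 249 RPM in brain and 299 RPM in lung. In Prkd2, Rhog, Pigq and Hbp1 the 5′ end was thus open in both tissues and the brain-high peak lay at the 3′ end.

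A total of 18 genes carried 2 members. In Cdk5r2 and Rabl6 the 2 members lay at opposite ends. Cdk5r2, which encodes the p39 activator of the neuronal kinase Cdk5, had 70.2, 66.6, 54.7 and 43.8 RPM in brain against 0, 5.86 and 14.7 RPM in lung at its 5′ end. Its 3′ end had 40.1, 12.9, 32.8 and 9.39 RPM in brain against 0, 0.831 and 5.69 RPM in lung. Neither overlapped, and the gene is 2704 bp long. The other 16 had adjacent members at the same end, among them Stxbp5l, Pclo, Cpe, Grm3, Grm7, Sncb, Enox1, Slc26a1 and Tubb4a, a tubulin of oligodendrocytes and neurons. Nacad, a paralog of a ribosome-associated chaperone subunit, had 32.6, 53.7, 60.2 and 62.6 RPM in brain against 0, 0.913 and 4.39 RPM in lung at the stronger of its 2 peaks. Phyhipl had 17.6, 34.4, 60.2 and 81.4 RPM in brain against 0, 2.64 and 7.11 RPM in lung at its stronger peak, the 50-nuclei libraries above the 200-nuclei ones. At the weaker peak its brain libraries had 37.6, 23.6, 38.3 and 40.7 RPM.

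Alternative starts could be followed in RefSeq for 288 member genes. A single group of starts was listed for 241 and several for 47. Of these 47, 13 had a member at 1 start and another peak at a second start, 25 had no measured peak at the other starts, and 9 had their member at no listed start. The 13 fell into a set of 7 whose other start was shared with lung (ratio under 2) and a set of 6 whose other start was brain-high as well (ratio 4 or more). Pde4dip, a centrosome and Golgi scaffold, had a member of 10.0, 17.2, 16.4 and 9.39 RPM in brain against 0, 1.38 and 2.84 RPM in lung at its upstream start. Its second start, 120693 bp further on, averaged 117 RPM in brain and 99.9 RPM in lung. The sequences of both are given above. Frmd4a, a scaffold protein of cell polarity, had a member averaging 20.1 ± 14.3 RPM in brain and 0.255 ± 0.417 RPM in lung (SD, n = 4 and 6), uneven between brain libraries at 10.0, 40.8, 10.9 and 18.8 RPM. A start 542071 bp downstream went the other way, at 23.1 RPM in brain and 63.7 RPM in lung, and a start 383293 bp downstream had 13.1 RPM in brain and 8.62 in lung. Elmo2, Trmt13, Rusc1, Ethe1 and Dido1 made up the rest of the shared set, with ratios of 0.750 to 1.49 at the other start. In Elmo2 the member start was itself open in both tissues. The member averaged 13.4 RPM in brain, and a neighbouring peak at that start averaged 134 RPM in brain and 84.2 RPM in lung.

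In the brain-high set, Fez1, an axonal adaptor for kinesin transport, averaged 21.6 RPM in brain and 0.122 in lung at the member, and 51.6 RPM in brain and 1.34 in lung at a start 10849 bp away. Anks1b, a postsynaptic scaffold, averaged 24.7 RPM in brain and 1.21 in lung at the member, and 27.3 RPM in brain and 1.24 in lung at a start 702218 bp away. Chn1, which encodes the Rac GTPase activator chimaerin, averaged 18.8 RPM in brain and 1.42 in lung at the member, and 24.9 RPM in brain and 4.18 in lung at the other start. Tafa5, Tcaf1 and Tmod2 were the other 3, with ratios of 11.5, 4.81 and 5.25 at the second start. The 2 sets were formed by this ratio, so no test of it is given.

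**Figure D4:**
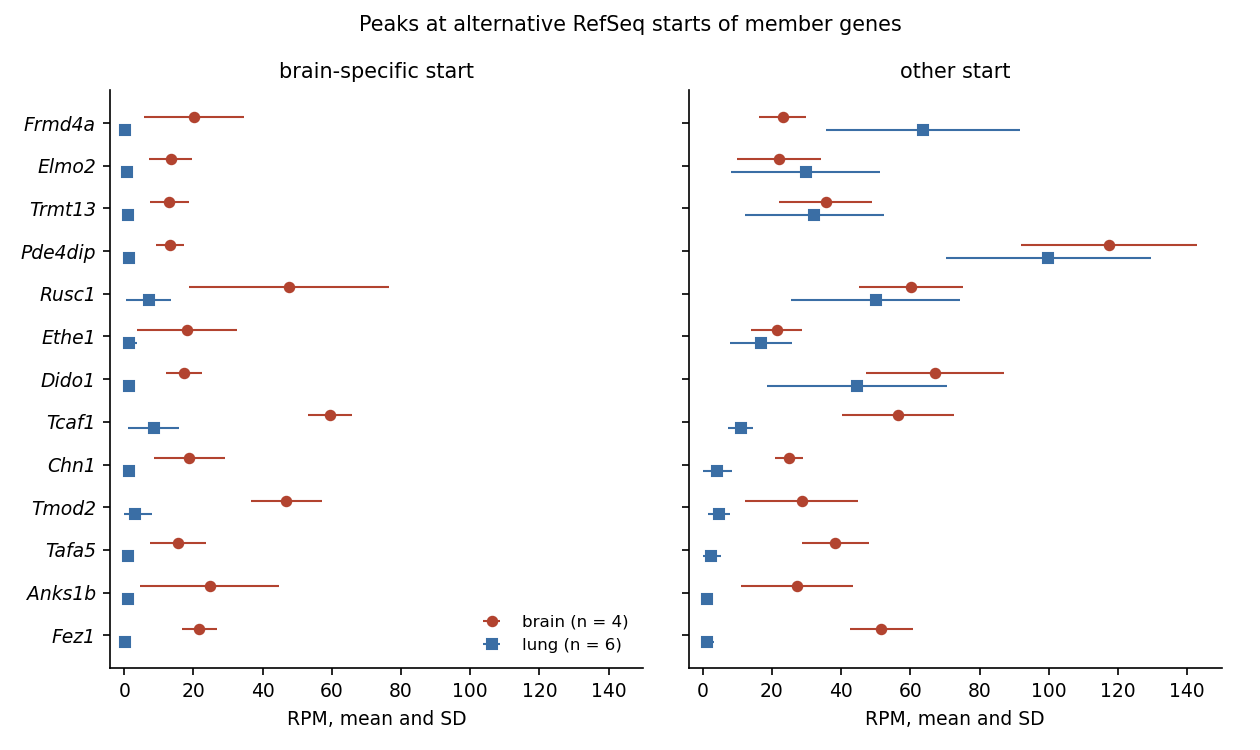
Mean RPM with SD over 4 brain and 6 lung libraries at the member peak of 1 start (left) and at a peak of another start (right) of 13 genes, brain above lung in each row. The shared peak beside the Elmo2 member is not drawn. On the right, the upper 7 genes have a ratio under 2 and the lower 6 a ratio of at least 4.

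Members were narrow peaks. Their median width was 125 bp, against 292 bp over all gene-end peaks. It was 119 bp (n = 184) against 215 bp (n = 2836) when both were limited to the middle range of the members' brain levels. Lung levels, low in members by the rule, were not matched, and their part in width was not tested. Centres of members lay a median of 190 bp from the gene end, against 101.5 bp. A peak that was no member lay within 1000 bp of 95 members, measured between centres, and was the higher of the 2 in brain at 58. At 41 members that neighbour had a ratio under 2 and a lung level above the member's brain level. Crocc, the rootletin of ciliary rootlets, was of this kind. Its member (chr4:141060279-141060370) averaged 20.1 RPM in brain and 1.27 RPM in lung. The neighbour (chr4:141060427-141060986), with its centre 382 bp away, averaged 202 RPM in brain and 242 RPM in lung. Others were Mrpl17 (member 19.0 RPM in brain and 1.66 RPM in lung, neighbour 169 RPM in brain and 216 RPM in lung) and Otud4 (member 13.9 RPM in brain and 0.201 RPM in lung, neighbour 113 RPM in brain and 143 RPM in lung). These 41 members had a median of 16.9 RPM in brain and a width of 113 bp. Their low brain level follows in part from how they were picked, since the neighbour's lung level had to exceed it. They thus flank peaks open in both tissues, at genes such as Mrpl17, Otud4, Odc1 and Rbm4, which are used in most tissues. The 273 members with no peak of any other kind than a member within 1000 bp had a median ratio of 10.3 and a width of 130 bp.

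Promoter sequence was read where a listed start-site window overlapped the peak. This held for 159 of 368 members and 6499 of 10830 gene-end peaks. They were set beside 20085 windows of all autosomal protein-coding starts. GC content had a median of 62.3% in members, close to the 62.7% of gene-end peaks and above the 57% of all starts. CpG dinucleotides were scarcer in members: the ratio of observed to expected CpG had a median of 0.637 (quartiles 0.434 and 0.766), against 0.81 (0.674 and 0.935) at gene-end peaks and 0.586 over all starts. A ratio of at least 0.6 was found in 56% of member windows, 83.7% of gene-end windows and 48.9% of all windows. Members therefore held fewer CpG-rich promoters than other accessible gene ends, at a similar GC content.

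Motifs were counted as exact letters on both strands, as a description of these windows only. ETS factors bind CCGGAAGT, which is common at housekeeping promoters. It stood in 1 member window (0.629%, Klhl32), against 9.83% of gene-end windows and 5.28% of all windows. The NRF1 motif GCGCATGCG stood in 2 member windows (1.26%), 4.71% of gene-end windows and 2.37% of all. The SP motif GGGCGG stood in 100 of the 159 (62.9%), 73% and 47% in the same order. The RFX letters GTTGCCATG occurred at Ccdc184, Chn1, Fez1 and Glipr1l3 (2.52%), against 0.769% and 0.682%. The RE1 left arm shown for Nsg2 and Cntnap5b was in 1.26% of members, 0.385% of gene-end windows and 0.413% of all, and the right arm GGACAGCGC was found at Fgf22 alone among members (0.629%, 0.831% and 0.563%). The cAMP response element was in 6 members (3.77%), Clstn3, Daam2, Fscn1, Otud7a, Usp29 and Wdr63, against 4.19% and 2.3%. The E-box CAGCTG was in 17.6%, 14.1% and 15.6%, and the E-box CAGATG in 13.8%, 9.43% and 14.6%. These were 28 and 22 member windows, and nothing is read from such small differences in share, which were not tested.

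Peaks inside the member genes, more than 1000 bp from any gene end, were rows the rule could not take. Of 256 such peaks in 106 genes, 52 (20.3%) were called higher in brain and 10 (3.91%) lower by edgeR's quasi-likelihood test with Benjamini-Hochberg adjustment. Over all genes 5.95% of 13164 body peaks were higher and 5.33% lower. The median log2 fold was 0.52 in the member genes and -0.18 over all. The split was 12 higher and 6 lower with edgeR's default filter and 9 higher and 154 lower under library totals, where 80% of all body peaks were called lower. Leaving out a brain library reduced the calls to 34 to 37 (12.1% to 12.9% higher in member genes, 2.70% to 3.37% over all). Leaving out the third lung library of 200 nuclei left 39 calls (13.7% higher in member genes, 3.50% over all). Member genes were long, with a median of 44229 bp against 23550 bp for genes with a gene-end peak, and the part of length in these counts was not tested.

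Higher body peaks came from 42 genes. Kcnj10 had a peak at chr1:172349929-172350283 with 72.7, 109.6, 90.3 and 109.6 RPM in brain and at most 2.22 RPM in any lung library. Its log2 fold was 7.48 (SE 0.67, edgeR adjusted p 2.62e-09), and its RPM was above that of the member at the gene's end. Enox1, a cell-surface oxidase, averaged 45.8 RPM in brain and 0.176 in lung at chr14:77157723-77157909 (edgeR adjusted p 8.68e-06), next to its 2 members. The imprinted zinc-finger gene Peg3 averaged 238 RPM in brain and 76.2 RPM in lung (log2 fold 1.68, edgeR adjusted p 1.17e-05).

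Lower body peaks came from 6 genes that still had a brain-high end: Pde4b, Frmd4a, Ptprr, Dpysl2, Etl4 and Tmtc2. Pde4b, a cAMP phosphodiesterase, averaged 11.0 RPM in brain and 64.2 in lung at such a peak (log2 fold -2.56, edgeR adjusted p 0.000886). That peak lay at a RefSeq start inside the gene, 1 of its 4 groups of starts. A further Pde4b start had a shared peak of 26.2 RPM in brain and 23.0 RPM in lung. Frmd4a averaged 8.21 RPM in brain and 56.8 in lung at 1 of its lower peaks (log2 fold -2.88, edgeR adjusted p 0.00112), and 21.9 RPM in brain and 1.26 in lung at a peak called higher. These genes thus held peaks higher in brain and peaks lower in brain at different places.

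Capture size made no called difference at the members. Between 200 and 50 nuclei in brain, 0 of 37466 peaks passed edgeR's test (0.00%), 426 (1.14%) had an unadjusted p under 0.05, and DESeq2 called 0. No member was among the 426. The members' median log2 fold, 200 over 50 nuclei, was -0.08, against -0.07 over all peaks, with a median SE of 1.44, so differences of several fold at single peaks could not be detected. The lowest p was at Odc1, the first enzyme of polyamine synthesis, with 7.52 and 4.30 RPM at 200 nuclei and 24.6 and 50.1 RPM at 50 nuclei (log2 fold -2.63, SE 1.64, edgeR unadjusted p 0.115, adjusted p 1). Ethe1 (log2 fold -2.37) and Phyhipl (log2 fold -1.42) followed.

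Between 200 and 50 nuclei in lung, 0 peaks passed edgeR's test (0.00%), and 3071 (8.20%) had an unadjusted p under 0.05, while DESeq2 called 2, neither a member. Among the members 54 had an unadjusted p under 0.05, 48 higher and 6 lower at 200 nuclei, and the lowest adjusted p was 0.487. Their median log2 fold was 1.66, against 0.33 over all peaks. Cadm4, an adhesion molecule of myelinated axons, had 9.42, 5.12 and 13.0 RPM at 200 nuclei and 0 in all 3 libraries of 50 nuclei (edgeR unadjusted p 0.000325, adjusted p 0.487). Pou3f1 had 13.8, 2.93 and 7.15 RPM at 200 nuclei and Ccdc184 had 4.43, 11.0 and 12.4 RPM, both with 0 at 50 nuclei. The lung libraries of 50 nuclei were also the shallowest, and the part of depth was not tested. Without the first lung library of 50 nuclei, 252 peaks were called, 2 of them members and higher at 200 nuclei. Without the second lung library of 50 nuclei 2 were called, without the third 6, and without the first lung library of 200 nuclei 2, none of them a member.

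Whether brain over lung differed between sizes was tested as an interaction. By edgeR 0 peaks passed (0.00%), 1554 (4.15%) had an unadjusted p under 0.05, and DESeq2 called 0. Among members 25 had an unadjusted p under 0.05, 3 above and 22 below 0, and no adjusted p was under 1. The members' median was -1.78 and that of all peaks -0.46, with a median SE of 2.18 at members. Ccdc184 (log2 difference -7.50), Cadm4 (-5.68) and Clstn3 (-5.14) had the lowest p, and all 3 lung libraries of 50 nuclei had no read at these peaks.

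Ratios ran on without a gap across the threshold of 6. Just inside it were Psat1, of serine synthesis, with a ratio of 6.003 (63.7 RPM in brain and 9.78 RPM in lung), Dctn6, a dynactin subunit, with 6.003 (11.6 RPM in brain and 1.09 RPM in lung), and Basp1, a growth cone protein, with 6.01 (11.7 RPM in brain and 1.11 RPM in lung). Just outside were Got2 with 5.998 (9.26 RPM in brain and 0.711 RPM in lung), Plch1 with 5.997 (20.3 RPM in brain and 2.55 RPM in lung) and Trps1 with 5.986 (26.2 RPM in brain and 3.54 RPM in lung). There were 83 members with a ratio under 7 and 136 peaks between 5 and 6.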

How the data were processed

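Counts of reads were deposited by the authors as 1 unnormalized table, a row for each of 37513 peaks and a column for each of 10 libraries, all used. The submitters' processing notes list, without roles, the build mm10 and a set of programs: MACS2 2.2.7.1, Bowtie2 2.4.5, Trimmomatic 0.36, SAMtools 1.14, bcl2fastq 2.20, deepTools 3.1.3, R 4.1.0 and Picard. How peaks were merged and reads counted, and whether duplicates were removed or reads shifted for Tn5, is not given in the sources used here; peaks drawn mainly from the deeper libraries, or duplicates left in the counts, would change levels and spread.

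Gene ends, strands where listed, start sites and sequences came from RefSeq tables of GRCm38.p6. RPM is 1000000 times a count over the library's nuclear peak reads. Tests were edgeR 4.0.16 quasi-likelihood F tests (R 4.3.3, TMM) on the 37466 peaks with at least 10 reads over all libraries, with a mean for each of the 4 groups, Benjamini-Hochberg adjustment over all peaks and a threshold of 0.05. The tissue contrast averaged both sizes. DESeq2 1.42.0, library totals as scaling, other filters, a replicate block and leaving out each library were tried, as were other settings of the membership rule. The script was tested on simulated counts. Tables were made with Python 3.11.15 and pandas 2.3.3 and drawn with matplotlib 3.10.9. Intervals cover counting error only.

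The members, gene lists and families were chosen with earlier results of these data known. Named genes were the 8 highest in brain, the 8 with the highest ratio, the 2 highest of each list, genes with 2 members, the 6 widest gaps between gene ends, the 3 lowest p of each size contrast and the 3 on each side of the threshold; other genes named were chosen after their values were seen. Some named genes are not reported here.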

Additional observations from a re-analysis of the deposited data

Results flagged for a closer look

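Among the 57 named peaks, 1 library stood apart from the others of its tissue in 16 of 114 groups of libraries, 3 in brain and 13 in lung, by the gap to the next library over the whole range (Dixon's criterion). Chance flags about 1 in 20 groups of continuous values, a rate that does not apply to lung groups made up mostly of zeros, where 1 to 3 reads can be flagged. In brain, Sox8 reached 119 RPM in the second library of 50 nuclei, next highest 93.0 RPM. Ntrk2 reached 72.7 RPM in the first library of 200 nuclei, next 32.8 RPM. Mt3 was low at 21.9 RPM in the second library of 50 nuclei, next 43.8 RPM.

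In the second lung library of 50 nuclei, Gpr37 had 26.4 RPM (next 1.46), a Tubb4a peak 20.6 RPM (next 2.77), a Phyhipl peak 11.7 RPM (next 3.25) and Ethe1 5.87 RPM (next 1.46). In the third, Prkd2 had 31.0 RPM (next 4.39). In the first, Rhog had 9.95 RPM (next 1.63), a Cpe peak 2.84 RPM (next 0.732) and a Slc26a1 peak 1.42 RPM (next 0). In the second lung library of 200 nuclei, Khdrbs2 had 2.20 RPM (next 0), Epha5 2.20 RPM (next 0.554), a Stxbp5l peak 3.66 RPM (next 0) and a Grm7 peak 1.46 RPM (next 0). In the first of 200 nuclei, Grin1 had 4.43 RPM (next 1.46).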

How the results depend on the processing

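The number of members was 215 with a minimum of 5 reads, 732 with a ratio of 4, 161 with a ratio of 10 and 0 with RPM over all reads, and 338 to 442 with a library left out. Of the 368 members, 301 to 349 stayed members with a library left out. Without lung 50-nuclei replicates 2 and 3 together there were 307 members, 252 of them shared with the 368. The called body peaks of member genes, 62 in all, became 163 under library totals (9 higher, 154 lower), 18 with edgeR's default filter, 36 with the replicate block and 34 to 85 with a library left out. Lung size calls, 0 as reported, were 3 under library totals, 2 with DESeq2, 2 with the replicate block, 15 without lung 50-nuclei replicates 2 and 3 together, and 0 to 252 with a library left out. Interaction calls were 2 under library totals, 2 with the replicate block and 3 without those libraries together. Brain size calls stayed at 0 in every setting run. Library totals turned 16 named log2 folds of brain over lung negative: Shisa4 -0.80, Sox8 -0.46, Stxbp5l -0.19, Map1a -0.41, Atp6v0e2 -0.64, Pclo -0.37, Psat1 -0.65, Cdk5r2 -0.11, Cpe -0.40, Kcnj10 -0.16, Nacad -0.44, Phyhipl -0.11, Rabl6 -0.058, Odc1 -0.85, Basp1 -0.21 and Dctn6 -0.36. With a library left out, all 57 named folds stayed above 0 (2.16 to 9.19). Same-numbered libraries of different groups were compared by the deviation of each peak from its group mean. These deviations, not the levels themselves, correlated between -0.0295 and 0.0194 over 13 pairs. With few reads per peak they are mostly counting error, so this cannot decide whether replicate numbers pair samples. A log2 SE near 1.44 for brain size limits what single peaks can show.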

Other observations

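The members were spread over all 19 autosomes, from 1.25% of gene-end peaks on chromosome 19 to 5.37% on chromosome 6. Of the 249 members outside the gene lists, several belong to genes of general function, with Parp1, a DNA repair enzyme, at 10.2 RPM in brain and 0.824 RPM in lung beside a shared peak of 42.6 RPM in brain and 38.8 RPM in lung.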
